A study of Mus musculus with 147 samples.

Results

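The genes described are 8 members of the sterol-regulated programme of cholesterol synthesis, Srebf2, Insig1, Hmgcs1, Idi1, Fdps, Fdft1, Sqle and Cyp51, among 50686 gene identifiers counted in mouse macrophages and blood monocytes. The list names them with no threshold on their values, although earlier results of these data were known when it was made, and all 8 were present in the count tables of both experiments. The refeeding experiment held 110 libraries of adipose tissue macrophages, monocytes, microglia, colonic macrophages, islet macrophages, Kupffer cells and peritoneal macrophages, from mice refed for 2 h after a 12 h fast or from mice fasted for 12 h. Refed and fasted libraries numbered 9 and 8 in adipose tissue macrophages, monocytes, microglia and colonic macrophages, 7 and 6 in islet macrophages and Kupffer cells, and 8 and 8 in peritoneal macrophages. The diet experiment held 37 libraries from mice on high-fat diet with streptozotocin (STZ), on high-fat diet alone or on normal chow. Islet macrophages had 3, 4 and 4 libraries in these groups, peritoneal macrophages 5, 4 and 5, and microglia 4 in each. High-fat feeding lasted 8 weeks and STZ, which kills pancreatic beta cells, was given at week 4. The series text states that STZ ablated the islets and raised blood glucose, so in the STZ group the islet macrophages came from damaged tissue. The labels used here name no strain, sex or age. Cells were sorted by flow cytometry, and each library was made by Smart-seq2 from 400 cells, except for 100000 cells in the diet peritoneal libraries and 5000 cells in the diet microglia libraries.

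Srebf2 encodes SREBP2, a transcription factor that is held in the membrane of the endoplasmic reticulum while sterols are plentiful. Insig1 encodes the protein that retains the SREBP escort SCAP there. When sterols run low, SREBP2 reaches the Golgi, is cut, and enters the nucleus, where it raises transcription of the enzymes of cholesterol synthesis and of proteins that bring sterol into the cell. In macrophages, which take up cholesterol with the cells and lipoproteins they engulf, this programme works against the LXR receptors, which raise sterol efflux. Insig1 and Srebf2 are themselves targets of SREBP2.

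The promoters of the transcription factor, its retention factor and the entry enzyme of the mevalonate pathway are shown because the known SREBP2 sites lie in such regions. They are RefSeq sequences of build GRCm38.p6, and 5 of the 8 genes (Srebf2, Insig1, Hmgcs1, Idi1 and Cyp51) were matched in the promoter table used here. Each runs 5′ to 3′ from 250 bases before the start of transcription to 50 bases into the transcript. Capitals mark 4 motifs searched on both strands, the sterol-element forms CACCCCAC and TCACNCCA, the NF-Y box CCAAT and the Sp1 box GGGCGG, and the opposite strand of these boxes reads ATTGG and CCGCCC. Positions count the start base as 1 and the base before it as -1.
Hmgcs1 (chr13:119690101-119690400, plus strand): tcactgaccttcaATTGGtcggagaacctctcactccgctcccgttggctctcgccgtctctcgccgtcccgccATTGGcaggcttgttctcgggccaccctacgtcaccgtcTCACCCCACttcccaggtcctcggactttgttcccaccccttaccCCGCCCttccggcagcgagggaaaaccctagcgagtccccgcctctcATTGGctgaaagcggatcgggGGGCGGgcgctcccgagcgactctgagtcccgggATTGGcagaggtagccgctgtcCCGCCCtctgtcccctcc
Srebf2 (chr15:82147019-82147318, plus strand): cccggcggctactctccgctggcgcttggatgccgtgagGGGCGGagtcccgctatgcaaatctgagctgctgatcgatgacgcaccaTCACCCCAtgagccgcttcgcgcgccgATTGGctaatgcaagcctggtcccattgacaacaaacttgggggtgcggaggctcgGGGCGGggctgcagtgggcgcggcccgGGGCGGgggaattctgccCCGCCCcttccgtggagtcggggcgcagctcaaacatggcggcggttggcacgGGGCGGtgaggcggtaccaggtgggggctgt
Insig1 (chr5:28071162-28071461, plus strand): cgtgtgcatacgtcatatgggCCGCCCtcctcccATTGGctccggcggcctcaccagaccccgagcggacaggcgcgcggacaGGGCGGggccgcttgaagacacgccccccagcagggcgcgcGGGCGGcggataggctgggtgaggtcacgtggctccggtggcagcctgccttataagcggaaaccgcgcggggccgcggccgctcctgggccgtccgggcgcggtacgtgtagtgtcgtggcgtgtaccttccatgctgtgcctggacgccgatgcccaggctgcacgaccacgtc

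The Hmgcs1 window held TCACCCCA at -137 and CACCCCAC at -136, which overlap, with 4 CCAAT boxes and 3 GGGCGG boxes. The Srebf2 window held TCACCCCA at -162 with 1 CCAAT and 5 GGGCGG boxes. In the Insig1 window neither sterol-element form was written, and it held 1 CCAAT and 3 GGGCGG boxes. The Idi1 and Cyp51 windows, which are not shown, also held neither form. Idi1 had 2 CCAAT boxes and 1 GGGCGG box, and Cyp51 had 1 of each. Of 27025 mouse promoters of this length, 2.77% held CACCCCAC, 4.28% held TCACNCCA, 37.9% held CCAAT and 35.9% held GGGCGG. A match is a string of letters and not a measured binding site. Other forms of the sterol element were not searched, so a window without a match can still hold such an element.

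Levels are given as CPM, a gene's count relative to the total count of its library on totals scaled by TMM (a factor that evens out differences in RNA composition), and the libraries held 7.92 M to 27.3 M counts each under refeeding and 11.3 M to 34.5 M under diet. Sums over several genes are instead given as CPM on library totals without that scaling. The macrophage genes Csf1r, Adgre1, Cd68, Lyz2 and Ptprc summed to at least 6864 CPM in every library of the refeeding experiment. Because the libraries are bulk RNA of sorted cells, fewer cells of a type and less RNA per cell cannot be told apart. In the refed groups, 4 libraries (1_2 and 3 of islet macrophages, 1 and 2 of Kupffer cells) have a description that mentions fasting only, and the titles and treatment fields, which say refed, were followed. Some counts were 0: Idi1 was at 0 in 43 of 147 libraries, Fdps and Sqle in 16 each, Cyp51 in 10, Fdft1 in 3, Hmgcs1 and Srebf2 in 1 each and Insig1 in 0.

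In fasted mice, each of the 8 genes had its highest mean level in colonic macrophages, the macrophages of the large intestine. Hmgcs1, which makes HMG-CoA, had the most calls for the colon: colonic macrophages exceeded each of the other 6 populations in the test, although some of these calls depended on the processing. For the other 7 genes the population next in order was not separated from the colon by the test. Microglia were called below the colon for all 8 genes, with a limit for Idi1 and Fdps that is given below. Every pair of populations was compared within 1 edgeR quasi-likelihood fit of the fasted libraries with cohort as a term, over 16114 genes, and a difference was called at a Benjamini-Hochberg adjusted p below 0.05. Libraries of several populations can come from the same mouse, and this fit treated them as independent.

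**Figure D1:**
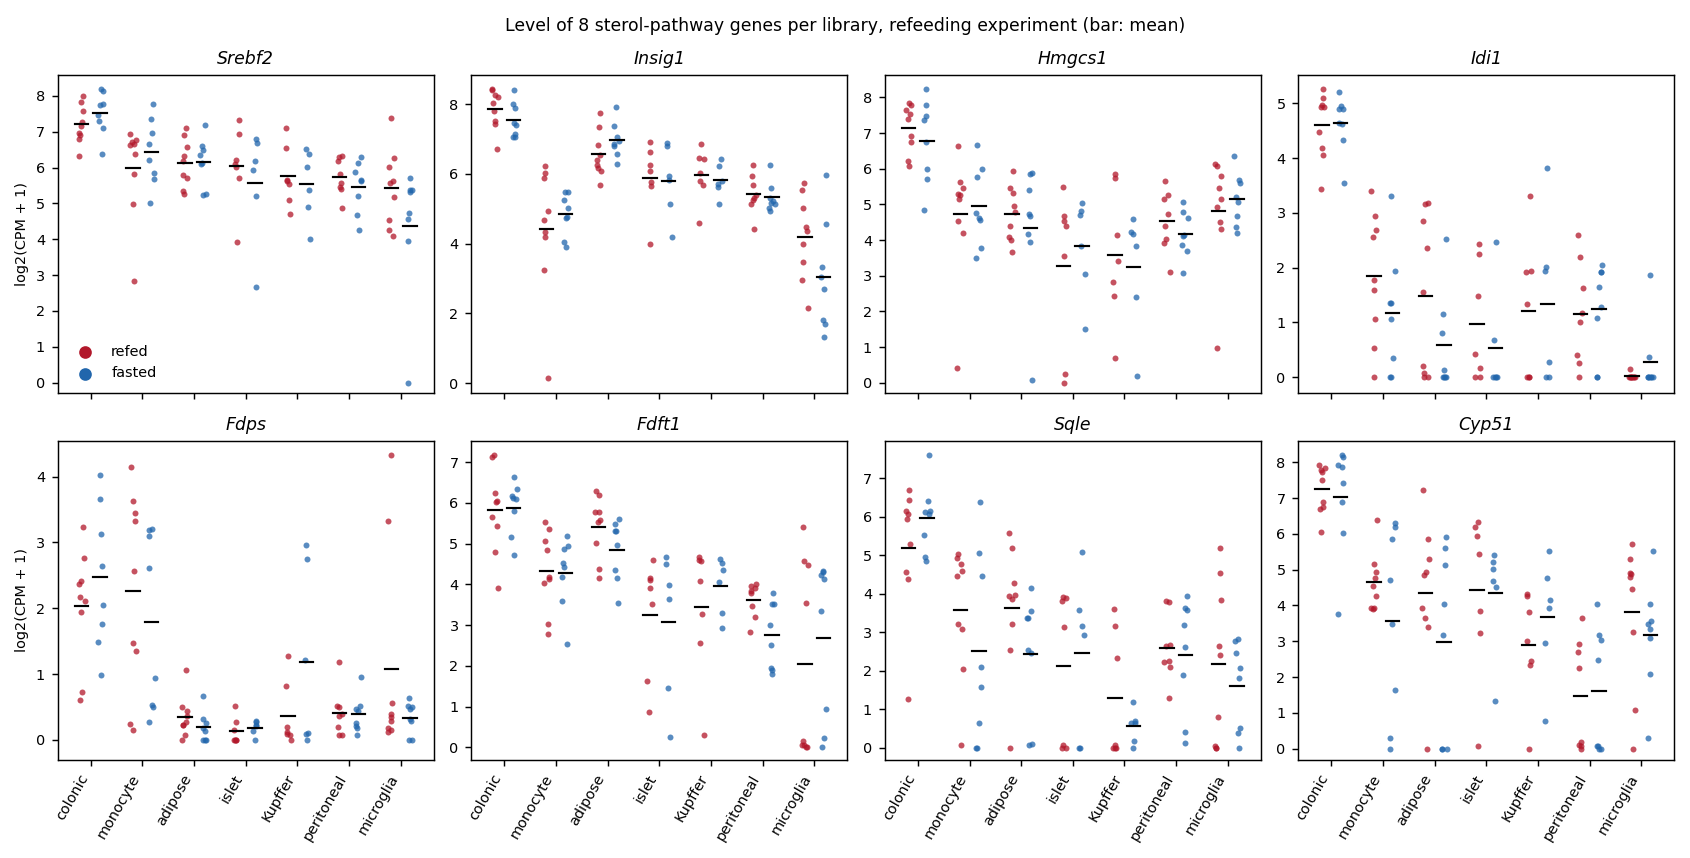
Level of each gene in every library of the refeeding experiment as log2(CPM + 1), with refed (red) left of fasted (blue) libraries of each population and bars at the mean of the plotted values. The colonic libraries stand highest on average for each gene in fasted mice, and Idi1 spans 9.86 to 37.5 CPM in refed and 10.7 to 35.8 CPM in fasted colonic libraries.

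Hmgcs1 (chromosome 13, 119690379 to 119708260, plus strand, in the GENCODE M21 annotation of mm10) condenses acetyl units into HMG-CoA at the entry of the mevalonate pathway. It ran from 27.8 over a median of 135.8 to 299 CPM in fasted colonic libraries, against 10.4, 24.9 and 100.7 CPM (lowest, median and highest) in monocytes, the next population by mean. Its mean was 138 ± 93.1 CPM in the colon (SD, n = 8), against 39.02 ± 31.04 CPM in monocytes and 12.6 ± 8.70 CPM in Kupffer cells, the liver-resident macrophages and the lowest population. The ranges of colonic and monocyte libraries overlapped. On the log2 scale the colonic level was higher by 1.88 ± 0.65 (SE) than in monocytes (edgeR adjusted p 0.031) and by 1.75 ± 0.65 than in microglia (adjusted p 0.044). It was higher by 2.21 ± 0.65 than in adipose tissue macrophages (adjusted p 0.018), by 2.98 ± 0.75 than in islet macrophages (adjusted p 0.0085), by 3.27 ± 0.77 than in Kupffer cells (adjusted p 0.0030) and by 2.82 ± 0.67 than in peritoneal macrophages (adjusted p 0.0014). These 6 calls were also made between refed libraries. Without fasted colonic replicates 3 and 5, which carried the most pancreatic RNA, 3 of the 6 calls remained, those against islet, Kupffer and peritoneal cells. With library totals and no scaling factor the calls against monocytes and microglia were lost.

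Idi1 (chromosome 13, 8885501 to 8892451, plus strand) interconverts the isoprene units IPP and DMAPP. It was detected in each fasted colonic library, from 10.7 over a median of 26.3 to 35.8 CPM, and averaged 25.1 ± 7.70 CPM there. The other population means lay between 0.364 CPM in microglia and 3.22 CPM in Kupffer cells, and in microglia 6 of 8 fasted libraries were at 0. Outside the colon only 1 fasted library, Kupffer replicate 3 at 13.2 CPM, reached the colonic range. Among refed mice the lowest colonic library (9.86 CPM) lay above the highest library of any other population (9.59 CPM, a monocyte library). The test called the colon higher than microglia (log2 difference 6.28 ± 2.00, edgeR adjusted p 0.017) and adipose tissue macrophages (5.99 ± 1.93, adjusted p 0.033), and the other 4 differences, between 3.36 and 6.37, had adjusted p-values of 0.067 to 0.32. In microglia fitted alone Idi1 failed the filter on low counts. It entered that test through its levels in other populations, so nothing further is drawn from the microglia call. The call against adipose tissue macrophages was lost under 2 of 8 alternatives. Fitted differences of a gene that is near 0 in many libraries have wide errors and depend on the count added before taking logs.

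Fdps (chromosome 3, 89093588 to 89101959, minus strand) makes farnesyl diphosphate, the branch point toward sterols and prenylated proteins. Its counts were low everywhere. It ran from 0.978 over 4.19 to 15.3 CPM in fasted colonic libraries and from 0.212 over 3.01 to 8.20 CPM in fasted monocytes, while its means in adipose, islet, peritoneal and microglial cells were 0.330 CPM or less. Colonic and monocyte ranges overlapped, and the difference was not called (0.57 ± 1.21, edgeR adjusted p 0.84). Both the colon (4 calls) and monocytes (3 calls) exceeded adipose, islet and microglial cells in the test, and the colon also exceeded peritoneal cells. In each of these lower populations, fitted alone, Fdps failed the filter on low counts. It entered these tests through its levels elsewhere, so nothing further is drawn from the calls. No Fdps call remained when genes of low counts were kept in the fit. Of its 4208 exonic bases 1124 overlap Gm43738 on the same strand, and the sources used here do not say how reads in shared exons were counted.

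The genes of the squalene and sterol branch were also highest on average in the colon. Cyp51 (chromosome 5, 4081145 to 4104746, minus strand), the lanosterol demethylase, ran from 12.5 over 202 to 292 CPM in fasted colonic libraries, against 0, 17.6 and 78.1 CPM in monocytes. It averaged 176 ± 103.05 CPM in the colon, and between 4.45 CPM in peritoneal macrophages and 30.6 CPM in monocytes elsewhere. The colon was called higher than peritoneal macrophages (5.59 ± 1.42, edgeR adjusted p 0.0027) and microglia (3.78 ± 1.27, adjusted p 0.025). Sqle (chromosome 15, 59315077 to 59331192, plus strand), squalene epoxidase and a rate-limiting step of the branch, ran from 27.7 over 67.1 to 192 CPM in the colon, against 0, 2.64 and 82.4 CPM in monocytes. Its mean was 72.9 ± 52.2 CPM in the colon, against 17.7 ± 28.7 CPM in monocytes and 0.528 ± 0.452 CPM in Kupffer cells, and the colon was called higher than Kupffer cells (6.92 ± 1.72, adjusted p 0.0054), microglia and peritoneal macrophages. The Sqle call against peritoneal macrophages (3.39 ± 1.26, adjusted p 0.046) was lost with library totals and no scaling factor (edgeR adjusted p 0.056), without fasted colonic replicates 3 and 5 (0.068) and between refed libraries (0.083). The Sqle calls against Kupffer cells and microglia were each lost under 1 of 8 alternatives. In Kupffer cells fitted alone Sqle failed the filter on low counts, and it entered that test through its levels elsewhere. Fdft1 (chromosome 14, 63145150 to 63179578, minus strand), squalene synthase, ran from 25.3 over 68.2 to 98.045 CPM in the colon, against 10.7, 34.3 and 47.8 CPM in adipose tissue macrophages. The colon was called higher in Fdft1 than peritoneal macrophages (3.24 ± 0.72, adjusted p 0.00061) and microglia (2.80 ± 0.72, adjusted p 0.0025). Exons of Fdft1 overlap the lysosomal protease gene Ctsb on the other strand over 774 bases, and without a stated strand setting the reads of both genes cannot be told apart there. The same limit holds for shorter overlaps of Hmgcs1, Idi1 and Cyp51 with genes on the other strand (557, 323 and 166 bases).

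The regulators were detected in nearly every library. Srebf2 (chromosome 15, 82147181 to 82205379, plus strand) ran from 81.6 over 194 to 289.7 CPM in fasted colonic libraries, against 30.997, 85.9 and 218 CPM in monocytes. Its means stepped down over 194 ± 70.7 CPM in the colon, 101.8 ± 63.7 in monocytes, 77.5 ± 34.8 in adipose, 64.2 ± 39.6 in islet, 53.3 ± 29.9 in Kupffer, 47.6 ± 20.8 in peritoneal and 29.2 ± 16.7 CPM in microglial cells, and no 2 neighbours in that order were separated. The colon was called higher in Srebf2 than microglia (2.71 ± 0.55, edgeR adjusted p 0.00017), peritoneal macrophages (1.99 ± 0.54, adjusted p 0.0051) and Kupffer cells (1.84 ± 0.60, adjusted p 0.043). The Srebf2 call against Kupffer cells was lost with library totals and no scaling factor (edgeR adjusted p 0.076), without fasted colonic replicates 3 and 5 (0.082) and between refed libraries (0.059). Insig1 (chromosome 5, 28071363 to 28078662, plus strand) ran from 132 over 172 to 338 CPM in the colon, against 77.5, 118.4 and 239.6 CPM in adipose tissue macrophages, and these neighbours overlapped (0.62 ± 0.44, adjusted p 0.46). Insig1 was called higher in the colon than in the other 5 populations, by 1.64 ± 0.50 against islet macrophages up to 4.05 ± 0.50 against microglia (adjusted p 8.8e-09). It also gave the most differences outside the colon. Adipose tissue macrophages exceeded monocytes (2.09 ± 0.45), microglia (3.42 ± 0.48) and peritoneal macrophages (1.69 ± 0.45) in Insig1, and each of the other populations exceeded microglia, where it averaged 13.96 ± 20.2 CPM. The Insig1 call of monocytes over microglia was lost under 2 of 8 alternatives. Those of peritoneal macrophages over microglia, adipose over peritoneal macrophages and colonic over islet macrophages were each lost under 1.

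Across all 8 genes, 40 of 168 pairwise tests were called. The colon was higher in 48 of 48 of its tests, of which 27 were called, and in 0 was it called lower. These 48 tests share the same 8 colonic libraries and are not independent. Median log2 differences over all genes in these pairs ran from -0.01 to 0.27. Set against the share of all genes called higher in the colon, the counts were 8 of 8 against microglia (16% of all genes), 7 against peritoneal macrophages (14.2%), 4 against Kupffer cells (5.15%), 3 against islet macrophages (6.54%), 3 against adipose tissue macrophages (8.04%) and 2 against monocytes (14.5%). The filter on low counts ran over all fasted libraries together, for these genes and all others. Fdps, Idi1 and Sqle were thus kept by their levels in some populations and tested against others in which, fitted alone, they failed the filter. The counts include such calls. In the colon these are Idi1 over microglia, Fdps over adipose, islet, microglial and peritoneal cells, and Sqle over Kupffer cells. Outside the colon they are Fdps for monocytes over adipose, islet and microglial cells and Sqle for monocytes over Kupffer cells. Outside the colon, 13 of 120 tests were called, and 7 of these placed another population above microglia. Monocytes exceeded microglia in Srebf2, Insig1 and Fdps (3 of 8, all genes 12.8%). The other counts outside the colon were 2 for adipose over peritoneal cells (Insig1 and Fdft1, all genes 8.68%) and 1 each for the remaining directions. These were Insig1 for adipose cells over monocytes (9.95%) and over microglia (12.1%), Insig1 for islet (11.4%), Kupffer (12.1%) and peritoneal cells (13.4%) over microglia, Fdps for monocytes over adipose (6.83%) and islet cells (7.74%), and Sqle for monocytes over Kupffer cells (5.39%). Of the 40 calls, 26 were made in the same direction between refed libraries, which gave 40 calls of their own. Within the 4 cohorts of fasted mice the colon was the highest population in 4 cohorts for Idi1, Fdft1, Sqle and Cyp51, in 3 for Srebf2, Insig1 and Hmgcs1, and in 2 for Fdps. Among refed mice these counts were 4 for Srebf2, Hmgcs1, Idi1 and Cyp51, 3 for Insig1, Fdft1 and Sqle, and 1 for Fdps.

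**Figure D2:**
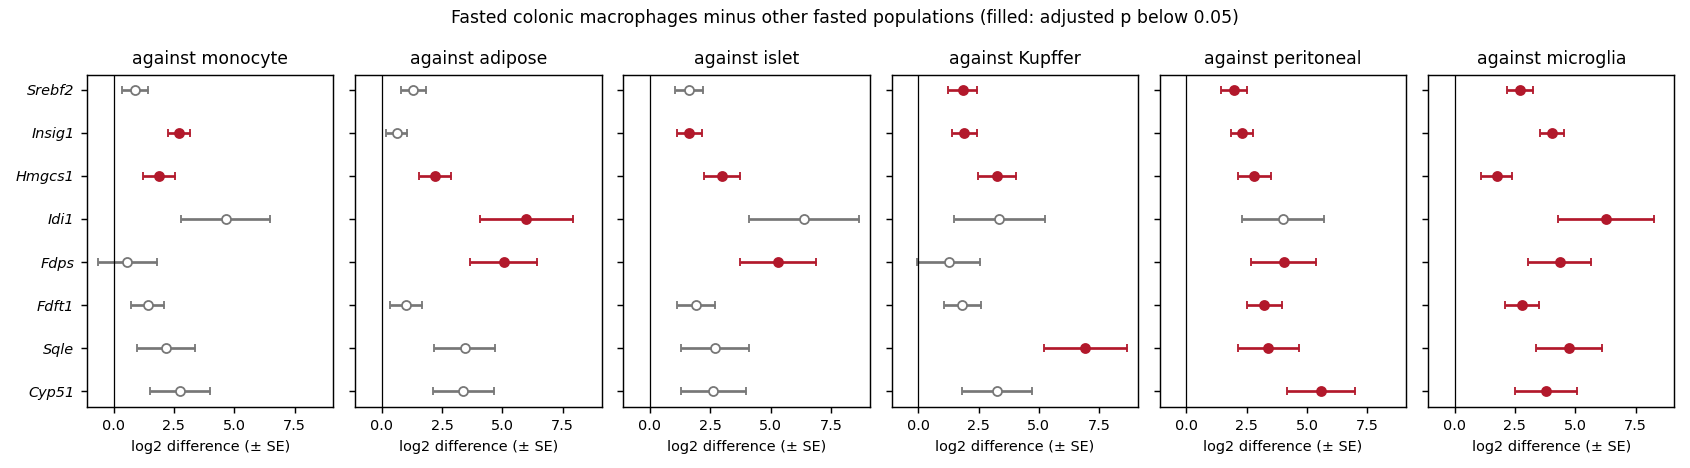
Fitted log2 difference (± SE) of each gene between fasted colonic macrophages and each other fasted population, with filled points at an adjusted p below 0.05. All 48 differences lie above 0, and 27 are filled, including Hmgcs1 in all 6 panels. The filled points of Fdps, of Idi1 against microglia and of Sqle against Kupffer cells belong to genes that failed the filter in the other population fitted alone.

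Per kilobase of exon, which allows genes to be set beside each other, Insig1 was the most abundant of the 8 in fasted colonic macrophages at 63.8 CPM per kb. Cyp51 (39.953), Hmgcs1 (30.1) and Srebf2 (27.0 CPM per kb) followed. Fdft1 stood at 14.8, Sqle at 13.1, Idi1 at 7.16 and Fdps at 1.44 CPM per kb.

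Colonic libraries also carried RNA of other cells, and its part in the difference between populations was not tested. Summed levels of epithelium markers (Epcam, Krt8, Krt18, Muc2 and Vil1) lay between 48.8 and 1968 CPM in refed and between 48.4 and 910 CPM in fasted colonic libraries, against at most 61.7 CPM in any refeeding library of another population. Acinar markers of the exocrine pancreas (Cel, Cpa1, Pnlip, Prss2 and Ctrb1) summed to 8.58 to 12945 CPM in refed and to 643 to 123430 CPM in fasted colonic libraries. B and plasma cell markers (Cd79a, Ms4a1, Igha and Jchain) summed to 5.92 to 102240 CPM in refed and to 8.34 to 59060 CPM in fasted colonic libraries. The 5 macrophage markers, in turn, summed to 6864 to 21272 CPM in fasted colonic libraries, less than in any fasted library of monocytes (at least 46831 CPM) or peritoneal macrophages (at least 51628 CPM). Low sums were not particular to the colon: the lowest refeeding library of another population had 9241 CPM, within the colonic range. Every one of the 5 acinar genes was detected in every colonic library, whereas Muc2 was at 0 in 4 of 9 refed and 1 of 8 fasted libraries and Ms4a1 in 7 of 9 refed and 3 of 8 fasted libraries.

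On library totals without scaling, the summed level of the 8 genes was 500 to 1010 CPM in refed and 321 to 1085 CPM in fasted colonic libraries, against at most 474 CPM in any library of another population. Of the 17 colonic libraries only fasted replicate 7, at 321 CPM, lay below that level, and it had the highest sum of macrophage markers (21272 CPM). Refed replicates 9 and 5, next in macrophage markers (19677 and 18453 CPM), had the lowest sums of the 8 genes among refed colonic libraries, 545 and 500 CPM. Fasted replicate 6 and refed replicate 4, which followed in macrophage markers (17706 and 17153 CPM), summed to 964 and 745 CPM of the 8 genes. Refed replicate 2, lowest in acinar markers and highest in B and plasma cell markers (102240 CPM), summed to 1010 CPM. Fasted replicate 5, with 8.34 CPM of B and plasma cell markers, summed to 839 CPM, and refed replicate 5, with 5.92 CPM of them, to 500 CPM. Fasted replicate 1 and refed replicate 9, with 48.4 and 48.8 CPM of epithelium markers, summed to 704 and 545 CPM. These last 2 libraries also had little acinar RNA (643 and 679 CPM of acinar markers), but no library was low in all 3 kinds. Leaving out fasted replicates 3 and 5, whose acinar markers passed 100000 CPM, gave 34 calls of 168, all among the 40.

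**Figure D3:**
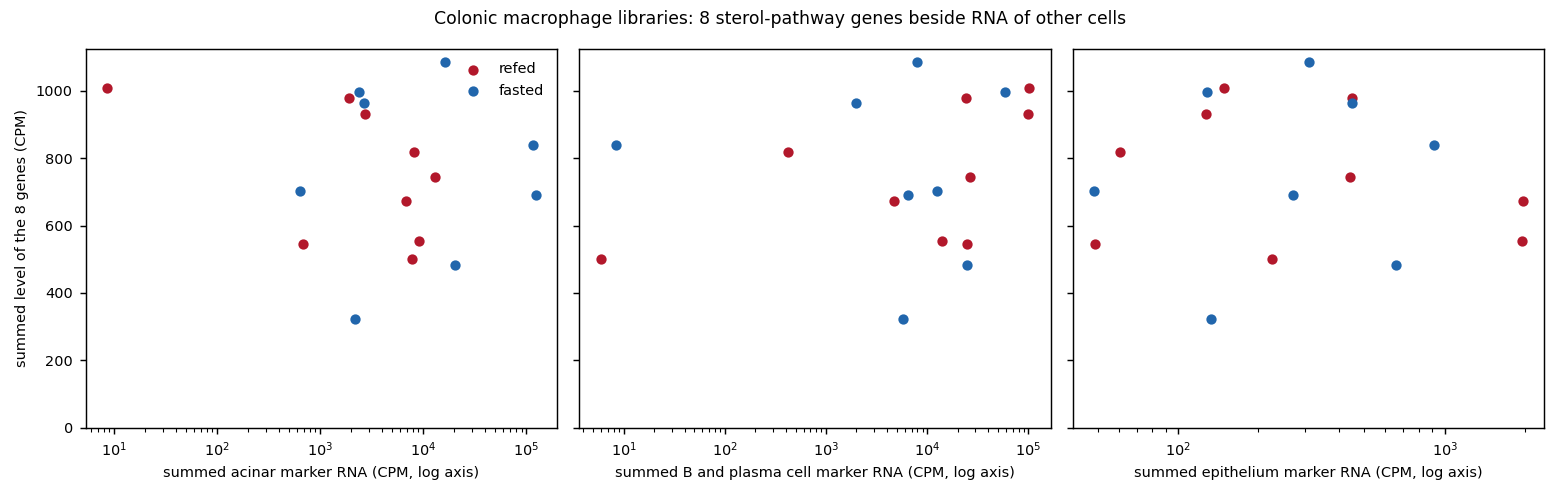
Summed level of the 8 genes (CPM, linear axis) against summed acinar, B and plasma cell, and epithelium marker RNA (CPM, log axes) in the 9 refed (red) and 8 fasted (blue) colonic libraries. All sums are on library totals without scaling. Refed replicate 2 is lowest in acinar markers (8.58 CPM) and highest in B and plasma cell markers (102240 CPM), with 1010 CPM of the 8 genes, and fasted replicate 7 has the lowest sum of the 8 genes, 321 CPM.

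Other genes of sterol synthesis and uptake showed the same direction in the colon. Of a list of 15 further genes, 14 were tested, and over the 6 other populations 75 of their 84 differences were above 0 (higher in the fasted colon), with 24 called, all above 0. By pair, 3 (against Kupffer cells) to 5 (against microglia) of 14 were called, where 5.15% and 16% of all genes were called higher in the colon. Median differences of that list ran from 1.18 against adipose tissue macrophages to 1.77 against monocytes on the log2 scale, while medians over all genes ran from -0.01 to 0.27. Sc5d, the lathosterol oxidase, was 147 ± 41.9 CPM in the colon, against 16.6 to 49.4 CPM on average elsewhere, and was called against 5 populations. Pmvk, phosphomevalonate kinase, was 96.7 ± 46.997 CPM in the colon, against 7.18 to 20.6 CPM elsewhere. Msmo1, which removes methyl groups from sterols, was 149 ± 62.2 CPM in the colon, against 27.7 to 52.6 CPM elsewhere. Stard4, a sterol transport protein, was 117.5 ± 62.5 CPM in the colon, against 0.881 to 16.2 CPM elsewhere. Among lists of neighbouring pathways, the SREBP processing genes (Scap, Mbtps1, Mbtps2, Insig2 and Srebf1) gave 12 of 30 differences above 0 and no call, the fatty acid synthesis genes 43 of 60, and the LXR and efflux genes 15 of 30. Of the fatty acid synthesis differences 9 were called higher in the colon and 2 lower (Acly and Acaca, both against peritoneal macrophages). Of the LXR and efflux differences 6 were called higher in the colon and 4 lower (Abcg1 against microglia, islet macrophages and Kupffer cells, and Mylip against microglia). By pair, 0 to 2 of 10 fatty acid synthesis genes and 0 to 2 of 5 LXR and efflux genes were called higher in the colon. The share of all genes so called was 5.15% to 16% by pair.

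Refeeding for 2 h gave no called difference in any of the 8 genes in any population. Each population was fitted on its own with edgeR and cohort as a term. In adipose tissue macrophages 0 of 7 tested genes were called (0% of all genes) and 1 had an unadjusted p below 0.05 (5.16% of all genes). In monocytes the counts were 0 and 0 of 8 (all genes 0% and 2.65%), in microglia 0 and 0 of 6 (0% and 2.59%), in colonic macrophages 0 and 0 of 8 (0% and 2.59%), and in islet macrophages 0 and 0 of 6 (0% and 2.42%). In Kupffer cells they were 0 and 0 of 6 (0% and 3.27%), and in peritoneal macrophages 0 and 1 of 7 (0.432% and 11%). Fdps did not pass the filter on low counts in adipose tissue macrophages, microglia, islet macrophages, Kupffer cells or peritoneal macrophages, nor Idi1 in microglia and islet macrophages, nor Sqle in Kupffer cells. DESeq2 and limma voom also called 0 of the 8 genes in each population, and so did edgeR in islet macrophages and Kupffer cells without the 4 refed libraries whose descriptions mention fasting only.

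Fdft1 was the gene with an unadjusted p below 0.05 in both cases. In adipose tissue macrophages it ran from 16.8 over 47.2 to 77.7 CPM in refed libraries, against 10.7, 34.3 and 47.8 CPM in fasted libraries. The ranges overlapped, and the log2 difference was 0.72 ± 0.29 (unadjusted p 0.026, edgeR adjusted p 0.86), with refed higher in 4 of 4 cohorts by 0.48 to 0.85. Cyp51 (by 1.06 to 1.83) and Sqle (by 5.2e-05 to 1.94) were also higher in 4 of 4 adipose cohorts, while the remaining genes had cohorts of both signs. In peritoneal macrophages Fdft1 ran from 6.14 over 13.04 to 14.98 CPM in refed libraries, against 2.47, 5.89 and 12.8 CPM in fasted libraries. There the log2 difference was 1.05 ± 0.47 (unadjusted p 0.040, edgeR adjusted p 0.41), with refed higher in 4 of 4 cohorts by 0.36 to 1.52. The cohort values are differences of mean log2(CPM + 1).

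In colonic macrophages, where the genes were highest, Insig1 ran from 104.01 over 264 to 346 CPM in refed libraries, against 132, 172 and 338 CPM in fasted libraries (log2 difference 0.36 ± 0.21, edgeR adjusted p 1). Srebf2 ran from 79.7 over 140.5 to 253 CPM in refed libraries, against 81.6, 194 and 289.7 CPM in fasted libraries (-0.25 ± 0.21, adjusted p 1), and was lower in refed mice in 4 of 4 cohorts (-0.51 to -0.02). Hmgcs1, with 66.97, 166 and 228 CPM in refed libraries, against 27.8, 135.8 and 299 CPM in fasted libraries, differed by 0.31 ± 0.38. The remaining 5 genes differed by -0.60 ± 0.78 (Fdps) to 0.25 ± 0.39 (Cyp51). In microglia Insig1 ran from 3.45 over 19.5 to 52.9 CPM in refed libraries, against 1.52, 6.36 and 61.2 CPM in fasted libraries (0.89 ± 0.89, adjusted p 1). Elsewhere the differences with the largest errors belonged to genes near 0 in several libraries, such as Sqle in islet macrophages (0.12 ± 2.71).

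Averaged over the 7 populations in a joint fit of all 110 libraries, the 8 genes were each above 0 in sign (48.3% of all genes were), with a median log2 difference of 0.19 over the genes and of -0.01 over all 18640 genes. None was called (0 of 8, all genes 0.198%) and none had an unadjusted p below 0.05 (all genes 7.39%), also by DESeq2 and voom. Libraries of several populations can come from the same mouse, and the joint edgeR fit treated them as independent. With the mouse as a block in voom none was called either. Sqle had the largest average, 0.78 ± 0.55 (edgeR adjusted p 0.96), and Insig1, Srebf2, Hmgcs1, Cyp51 and Fdft1 averaged 0.16 to 0.26 with errors of 0.19 to 0.48. The signs of Fdps, Fdft1 and Idi1 turned under some alternatives, with values between -0.31 and -0.02. The test of whether the refeeding effect differed among populations gave no call (0 of 8, all genes 0.0268%, and 0 with an unadjusted p below 0.05, all genes 7.51%). Within single cohorts of single populations, 126 of 216 refeeding differences were above 0 and 88 below.

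Other genes of sterol synthesis gave 0 calls by edgeR in each of these comparisons. Among the 15, Mvd, mevalonate diphosphate decarboxylase, had an unadjusted p below 0.05 in Kupffer cells, higher in refed mice. Averaged over populations the list had 7 of 15 genes above 0 and a median of -0.01 (all genes -0.01).

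**Figure D4:**
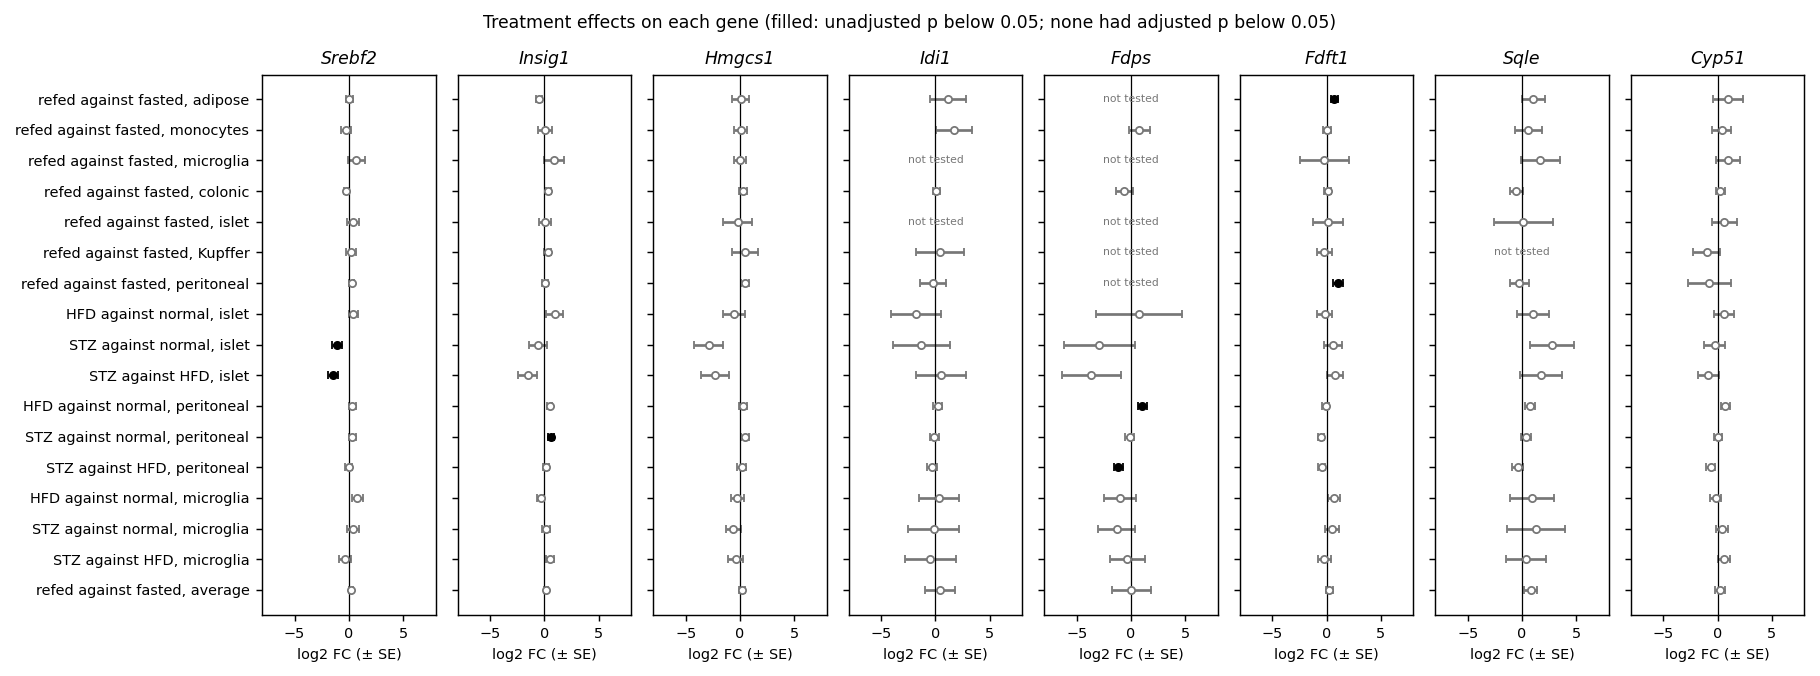
Fitted log2 fold change (± SE) of each gene in the 16 treatment comparisons and for the average over 7 populations, with filled points at an unadjusted p below 0.05. The 7 filled points belong to Fdft1, Srebf2, Fdps and Insig1, and no point had an adjusted p below 0.05.

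Diet was tested within 3 populations with the 3 groups fitted together. In islet macrophages 0 of 8 genes were called for STZ against normal diet (all genes 0%), for STZ against high-fat diet (0%) or for high-fat against normal diet (0%). Unadjusted p-values below 0.05 numbered 1 (all genes 5.66%), 1 (4.99%) and 0 (2.42%) in these comparisons. The gene was Srebf2 in both. It stood at 41.8, 82.04 and 23.6 CPM in the STZ libraries and at 179, 94.1, 135 and 155 CPM in the high-fat libraries, against 120, 138, 69.5 and 91.3 CPM in the normal-diet libraries. All 3 STZ libraries lay below all 4 high-fat libraries, and 1 of them (82.04 CPM) lay within the normal-diet range. The log2 difference was -1.48 ± 0.48 for STZ against high-fat diet (unadjusted p 0.011, edgeR adjusted p 0.96), lower in 3 of 3 cohorts (-2.67 to -0.71). For STZ against normal diet it was -1.09 ± 0.47 (unadjusted p 0.043, adjusted p 0.87), lower in 2 of 3 cohorts. Hmgcs1 spread widely in the same libraries, with 3.39, 41.95 and 0.178 CPM in STZ and 17.8, 18.6, 57.9 and 41.05 CPM in high-fat libraries, against 43.3, 37.5, 49.3 and 39.7 CPM in normal-diet libraries. STZ replicates 3 and 5 lay below all others and replicate 4 lay among them, and the difference of STZ from normal diet was -2.90 ± 1.36 (unadjusted p 0.059, adjusted p 0.87). Fdft1 and Sqle had positive differences in STZ against normal diet (0.59 ± 0.79 and 2.74 ± 2.04, adjusted p 0.98 and 0.92). Each of these islet values rests on 3 STZ libraries of 400 cells.

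**Figure D5:**
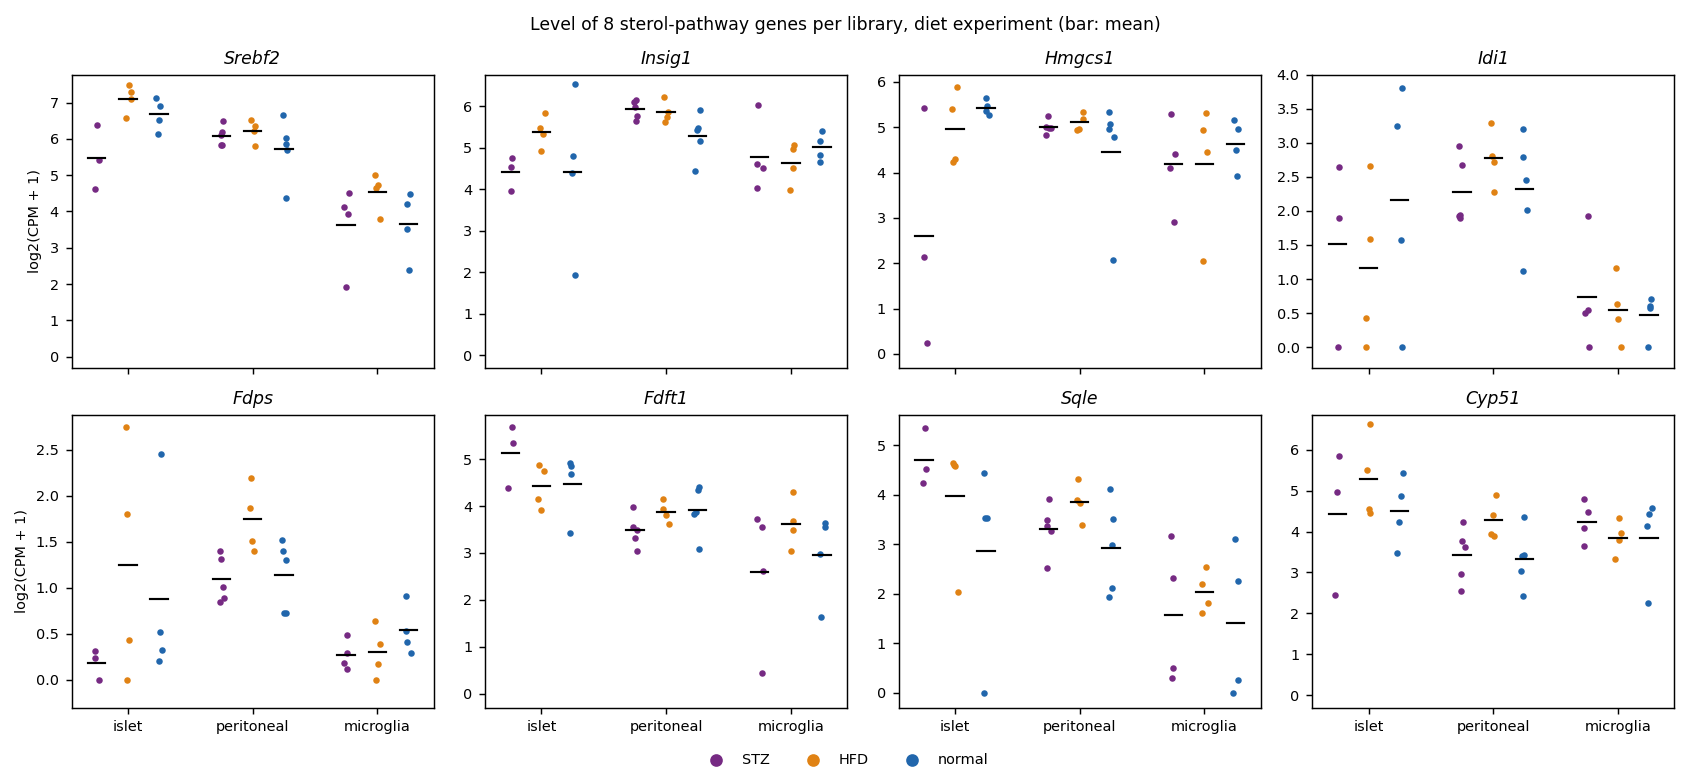
Level of each gene in every library of the diet experiment as log2(CPM + 1), with STZ left of high-fat diet left of normal diet in each population and bars at the mean of the plotted values. In islet macrophages the 3 STZ libraries hold 23.6 to 82.04 CPM of Srebf2, below the 94.1 to 179 CPM of the high-fat libraries.

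In peritoneal macrophages 0 of 8 genes were called for STZ against normal diet (all genes 1.29%), STZ against high-fat diet (0%) or high-fat against normal diet (0%). Unadjusted p-values below 0.05 numbered 1 (all genes 19.6%), 1 (8.08%) and 1 (3.54%). Insig1 stood at 67.5, 62.4, 70.1, 52.99 and 49.045 CPM in STZ and at 52.1, 73.2, 47.8 and 56.985 CPM in high-fat libraries, against 43.5, 34.8, 20.7, 58.7 and 42.3 CPM in normal-diet libraries. The STZ and normal-diet ranges overlapped through normal-diet replicate 4, and the difference was 0.62 ± 0.24 (unadjusted p 0.024, edgeR adjusted p 0.20), higher in 4 of 5 cohorts. Fdps stood at 1.64, 1.02, 1.48, 0.856 and 0.798 CPM in STZ and at 3.58, 2.64, 1.85 and 1.63 CPM in high-fat libraries, against 1.64, 0.655, 1.47, 1.87 and 0.656 CPM in normal-diet libraries. High-fat libraries were thus the highest, with overlap at their lower end, by 1.04 ± 0.43 over normal diet (unadjusted p 0.029, adjusted p 0.99, higher in 3 of 4 cohorts). STZ differed from high-fat diet by -1.16 ± 0.43 (unadjusted p 0.017, adjusted p 0.45, lower in 4 of 4 cohorts). Normal-diet replicate 3 was the lowest of its group for Srebf2 (19.8 CPM), Hmgcs1 (3.23 CPM), Idi1, Sqle, Cyp51 and Insig1, and the 8 genes summed to 50.4 CPM there on library totals without scaling, against 120.6 to 272.7 CPM in the other 13 peritoneal libraries. STZ replicates 3 and 5 had the lowest sums of peritoneal macrophage markers (12422 and 9595 CPM, against 15147 to 21779 CPM in the other libraries). They also had the highest sums of monocyte markers (534 and 498 CPM, against 114.6 to 349.8 CPM). Every STZ library held more monocyte marker RNA (at least 293 CPM) than any high-fat or normal-diet library (at most 259 CPM). Gata6, the factor that sets peritoneal macrophage identity, fell in STZ against normal diet in the test, with 12.9 ± 6.38 CPM in STZ libraries (n = 5), against 32.2 ± 3.24 CPM in normal-diet libraries (n = 5). The part of these in the differences was not tested.

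In diet microglia 0 of 8 genes were called and 0 had an unadjusted p below 0.05 for STZ against normal diet (all genes 0% and 2.15%), STZ against high-fat diet (0% and 4.77%) and high-fat against normal diet (0% and 3.16%). Srebf2 stood at 14.3, 2.80, 16.3 and 21.7 CPM in STZ and at 24, 30.9, 25.5 and 12.96 CPM in high-fat libraries, against 10.4, 17.3, 21.4 and 4.23 CPM in normal-diet libraries. These ranges overlapped, and high-fat diet differed from normal diet by 0.78 ± 0.49 (edgeR adjusted p 1). Insig1 stood at 63.7, 15.2, 23.2 and 21.6 CPM in STZ and at 21.6, 32.4, 30.2 and 14.8 CPM in high-fat libraries, against 34.9, 41.2, 27.1 and 23.98 CPM in normal-diet libraries, with 1 STZ library far above the rest. DESeq2 and voom called 0 of the 8 genes in all 9 diet comparisons.

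Whether the diet effects differed among the 3 populations was tested directly. That test gave 0 calls among the 8 genes by edgeR for STZ against normal diet (all genes 0.754%), for STZ against high-fat diet (0.708%) and for high-fat against normal diet (0.308%). Unadjusted p-values below 0.05 numbered 1 (Hmgcs1, 0.046, edgeR adjusted p 0.44; all genes 11.1%), 1 (Insig1, 0.023, adjusted p 0.33; all genes 11.1%) and 0 (all genes 7.78%).

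Among the 4 lists of related pathways, 1 gene was called in the diet comparisons. Nr1h3, the receptor LXR alpha, averaged 12.1 ± 2.29 CPM in STZ peritoneal libraries (n = 5) and 7.40 ± 2.53 CPM in high-fat libraries (n = 4), against 4.41 ± 1.17 CPM in normal-diet libraries (n = 5). It rose in STZ against normal diet by 1.44 ± 0.25 on the log2 scale (edgeR adjusted p 0.019), with the lowest STZ library at 10.1 and the highest normal-diet library at 6.35 CPM. In the same comparison Gata6 fell. Monocyte marker sums were higher in every STZ library, and peritoneal marker sums were lowest in STZ replicates 3 and 5, as given above. The part of these shifts in the Nr1h3 difference was not tested. In peritoneal macrophages, for STZ against normal diet, 1 of 14 tested genes of the other sterol synthesis list was above 0 in sign, 0 were called, and the median was -0.25 (all genes -0.01). Of the 8 genes 5 were above 0 in that comparison, with a median of 0.18. For STZ against high-fat diet in peritoneal macrophages that list again had 1 of 14 above 0, with a median of -0.33 (all genes 0.00). Of the 8 genes 3 were above 0 there, with a median of -0.38.

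After removal of the means of each population, treatment and cohort, the 8 genes did not move closely together from library to library. Over 110 libraries, of which 5 were alone in their cell, the 28 pairs of genes had Pearson correlations between -0.27 (Fdps and Fdft1) and 0.41 (Srebf2 and Insig1), with a median of 0.06 and 17 above 0. Counts of 1 library share its depth and input, so these are descriptions. The 10 of 18632 genes most like the mean of the 8 were Ppp2r3c (r 0.61), Nmral1 (0.58), Chchd4 (0.55), Mto1, Cog2 and Fmr1 (0.54 each), Map3k4 and Rabgap1 (0.53 each), Copa and Sept8 (0.52 each). None of the 15 other sterol genes was among the first 100. The closest of them were Lss (r 0.37, place 274), Mvk (0.29) and Acat2 (0.27), and the median r of the list was 0.12, against 0.06 over all genes.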

How the data were processed

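RNA of sorted macrophages and monocytes was measured by Smart-seq2. Raw counts per gene were deposited by the authors, made with Trimmomatic 0.36, STAR 2.5.1a and featureCounts on mm10, per the submitters' processing notes. The sources used here do not give the strand setting, the annotation release or the treatment of multi-mapping reads. Of 50686 identifiers, 50376 were given symbols from GENCODE M21, and 0 columns lacked a sample.

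The 8 genes and the lists were chosen with earlier results of these data known, and some genes that such lists usually hold are not reported here. Genes were filtered with filterByExpr, scaled by TMM and tested with edgeR 4.0.16 (quasi-likelihood, robust, cohort as a term, R 4.3.3), with Benjamini-Hochberg adjustment over all genes tested and a threshold of 0.05. Levels are CPM, cohort differences use a pseudocount of 1, and fold changes of genes near 0 depend on a prior count of 2. DESeq2 1.42.0, limma voom 3.58.1, other scalings, no filter, left-out libraries and blocks were alternatives. The scripts were tested on simulated data. Of 443 pairs of libraries of a group, 0 were identical.

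P-values measure the spread between libraries, which the labels tie to mice only in part: islet replicates 1_2 and 5_6 of the refeeding experiment carry 2 mouse numbers each. Libraries of several populations can come from the same mouse. The fits across populations did not pair them, except for the average refeeding effect in voom with the mouse as a block. In the islet and peritoneal diet libraries the replicate number is the cohort, per the labels, and same-numbered libraries had mean correlations of 0.05 (10 pairs) and 0.14 (13 pairs) in their deviations from group means. Named genes were the 8 genes in every comparison, genes of the other lists that were called, and the 10 genes most correlated with the mean of the 8. Genes of other lists with an unadjusted p alone were named after their values were seen.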

Additional observations from a re-analysis of the deposited data

Results flagged for a closer look

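In 176 groups of 4 to 9 libraries of a gene, 26 held 1 library far from the others. The rule used marks about 1 group in 20 by chance only where values follow a normal distribution. That rate cannot be applied to CPM of these genes, several of which had few or no counts in some libraries. No excess over chance is therefore drawn from the 26 groups. Idi1 gave 8 of them, Fdps 6, Sqle 4, Cyp51 and Insig1 3 each, and Hmgcs1 and Srebf2 1 each, and 11 rest on under 100 counts. Except for 1 islet library, the distant library was the highest of its group.

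In refed mice, microglia replicate 6 held 167 CPM of Srebf2 (next library 75.2) and 19.1 CPM of Fdps (next 9.01). Monocyte replicate 5 held 99.3 CPM of Hmgcs1 (next 48.5), and monocyte replicate 6 held 82.8 CPM of Cyp51 (next 34.6). Adipose replicate 6 held 149 CPM of Cyp51 (next 57.3), and adipose replicate 2 held 1.09 CPM of Fdps (next 0.408). Kupffer replicate 3 held 8.85 CPM of Idi1 (next 2.85), microglia replicate 5 held 0.105 CPM of Idi1 (all others 0), and peritoneal replicate 4 held 1.26 CPM of Fdps (next 0.428).

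In fasted mice, Sqle stood at 192 CPM in colonic replicate 4 (next 84.0), 82.4 CPM in monocyte replicate 4 (next 32.1) and 32.7 CPM in islet replicate 1_2 (next 10.9). Idi1 stood at 13.2 CPM in Kupffer replicate 3 (next 3.06), 8.89 CPM in monocyte replicate 4 (next 2.85), 4.74 CPM in adipose replicate 5 (next 1.22), 4.52 CPM in islet replicate 5_6 (next 0.604) and 2.63 CPM in microglia replicate 7 (next 0.284). Insig1 stood at 74.9 CPM in peritoneal replicate 1 (next 47.6) and 61.2 CPM in microglia replicate 2 (next 22.5). Cyp51 stood at 44.9 CPM in microglia replicate 1 (next 15.4). Fdps stood at 0.942 CPM in peritoneal replicate 6 (next 0.428) and 0.578 CPM in adipose replicate 7 (next 0.247).

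In the diet experiment, STZ microglia replicate 1 held 63.7 CPM of Insig1 (next 23.2) and replicate 2 held 2.80 CPM of Idi1 (next 0.455). High-fat islet replicate 3 had the lowest Sqle, 3.12 CPM (next 22.8), and normal-diet islet replicate 1 had the highest Fdps, 4.49 CPM (next 0.439).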

How the results depend on the processing

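Over 214 alternative values of 21 treatment comparisons and tests of their differences, under 33 settings, 0 of the 8 genes were called. With the replicate block in place of cohort, 0 were called in each of the 7 refeeding populations, and without the block 0 in the islet and peritoneal diet comparisons. The 40 called differences between fasted populations became 63 with DESeq2 and 68 with voom, of which 40 and 39 were among the 40. Of the 40, 33 were also called with no filter on low counts, 36 with library totals, 38 with no cohort term, 34 without colonic replicates 3 and 5, and 26 between refed libraries. The alternatives for those differences, and the peritoneal STZ comparisons without replicates 3 and 5, were chosen after seeing the data. The average refeeding effect turned negative for Fdps with voom quality weights (-0.024), without adipose tissue macrophages (-0.14), without monocytes (-0.093) and without microglia (-0.31), for Idi1 without islet macrophages (-0.057), and for Fdft1 with voom quality weights (-0.038) and with the mouse as a block in voom (-0.054). The cause was not tested.

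Counts over all genes depended on the tool. For the average refeeding effect edgeR called 37 genes, DESeq2 1783 and voom 25, and the DESeq2 count moved by a few genes with the processor's linear algebra routine, which was then fixed. For STZ against normal diet in peritoneal macrophages edgeR called 171, DESeq2 954 and voom 246. Library totals without a scaling factor gave 110 calls and moved the median of all genes there to 0.16, against -0.01 with scaling. For STZ against high-fat diet there edgeR called 0, DESeq2 202, voom 85 and edgeR without the replicate block 34. For refeeding in peritoneal macrophages edgeR called 49, DESeq2 339, voom 98 and edgeR with no filter on low counts 312. With no filter edgeR called 212 for the average refeeding effect and 710 for STZ against normal diet in peritoneal macrophages, where leaving out 1 library at a time gave 30 to 301. In the population comparisons where edgeR called 0, DESeq2 called 7 to 593. Low counts limit Idi1, Fdps, Sqle and Cyp51, which were at 0 in some libraries.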
